A study of Homo sapiens with 7 samples.

Results

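The mutant constructs of a lentiviral massively parallel reporter assay (lentiMPRA) were compared with wild-type sequence in C4-2B, an established human prostate cancer line of the LNCaP lineage, derived from a bone metastasis. A construct here is 1 candidate regulatory sequence carrying 1 tested mutation of a region. All 1025 mutants of the authors' deposited mutant-against-wild-type table were taken, and the 13 with an absolute estimate above 10 were left out. This left 1012 mutants of 373 regions, of 1383 constructs in both deposited tables together. Of these regions, 221 held 2 or more mutants (860 mutants, at most 14 and a median of 3 per region), and 152 held a single mutant and are described apart.

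The cells carried the integrated library and no other agent is named in the labels. RNA and genomic DNA (gDNA) were extracted side by side 48 hours after transduction, giving 3 RNA and 3 gDNA libraries, beside 1 library that linked barcodes to candidate sequences. The labels do not say whether the 3 numbered libraries came from separate cultures. Depth is unknown, both by library and by construct, since the tables hold neither reads nor barcodes nor values per replicate, so each p measures only the error of the authors' model.

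In a lentiMPRA each candidate sequence integrates into the genome upstream of a reporter whose transcript carries a barcode, and the amount of barcode in RNA is read against the amount in gDNA. Promoters and enhancers act through short sites that transcription factors bind, and a single changed base can weaken such a site, create one, or leave binding as it was. Setting a mutant beside its wild-type sequence therefore measures what the change does to reporter output outside the native locus. A region is named below by the protein-coding gene it overlaps, or otherwise by the nearest one, in hg38 coordinates, and such naming says nothing about which gene a region regulates. A mutation is described only as a substitution, an insertion or a deletion.

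The deposited estimate is the natural log of an odds ratio, printed with the standard error that the estimate and its z value imply. Positive is read from the naming of the table as more RNA over gDNA for the mutant than for the wild type. A mutant is called higher or lower where the authors' adjusted p was under 0.05. A fold is a fold of odds.

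Only a few tested sites fell inside annotated promoter windows, defined as 250 bases before to 50 bases after a RefSeq transcription start. No start sites were used for 1 chromosome, named with the start-site distances below, so its 48 mutants in 12 regions could not be placed. Among all 1012 mutants, which include those 48, 57.3% were called, 29.8% higher and 27.5% lower. The windows held 16 mutants in 8 regions, of which 5 were called higher and 5 lower. The upstream sequences of 4 of these regions are shown, each holding tested sites: 2 regions with called mutants and 2 whose only mutant was not called. Those of the remaining regions are not shown. They are RefSeq sequences of GRCh38.p14, written 5′ to 3′ on the strand of the gene. Capitals mark matches, on either strand, to the short motifs searched. These were TGTTTAC and TGTTTGC for forkhead factors, AGAACA and GGAACA for 1 arm of the androgen receptor element, CCGGAA for ETS, TGANTCA for AP-1, GGGCGG for SP/KLF and CCAAT for the box of that name. Others were CACGTG for the E-box, AGATAA for GATA factors, CAATAAA for HOXB13, AAGATGG for YY1, GGAATG for TEAD and TGTGGT for runt factors. The cAMP response element and the NRF1 motif were searched as well.
TRERF1 upstream, chr6:42452225-42452336, minus strand: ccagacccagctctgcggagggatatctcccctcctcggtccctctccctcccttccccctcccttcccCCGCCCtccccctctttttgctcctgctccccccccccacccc
ADIPINT upstream, chr9:98910954-98911203, plus strand: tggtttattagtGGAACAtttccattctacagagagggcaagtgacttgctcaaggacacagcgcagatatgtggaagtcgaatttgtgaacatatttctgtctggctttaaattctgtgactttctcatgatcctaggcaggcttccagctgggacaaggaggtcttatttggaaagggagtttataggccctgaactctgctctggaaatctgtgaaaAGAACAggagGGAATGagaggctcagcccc
KPNA2 upstream, chr17:68035518-68035734, plus strand: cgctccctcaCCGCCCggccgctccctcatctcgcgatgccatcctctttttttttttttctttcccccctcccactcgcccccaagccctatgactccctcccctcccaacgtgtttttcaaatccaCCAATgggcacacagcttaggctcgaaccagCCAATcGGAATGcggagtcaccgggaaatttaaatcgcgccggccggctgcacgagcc
IFI27L2 upstream, chr14:94129663-94129854, minus strand: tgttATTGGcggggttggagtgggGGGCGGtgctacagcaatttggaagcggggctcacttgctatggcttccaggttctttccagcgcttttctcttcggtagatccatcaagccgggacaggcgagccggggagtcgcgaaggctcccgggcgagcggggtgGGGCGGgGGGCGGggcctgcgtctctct

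The TRERF1 stretch, upstream of the gene of a transcriptional regulator, held 1 SP/KLF match, a motif present in 33.0% of all 35116 promoter windows cut to the same length, and its GC content was 70.5%. In the authors' deposited table the 5 mutants of the TRERF1 region stood at 0.75 ± 0.19, 0.17 ± 0.04, -0.03 ± 0.04, -0.18 ± 0.05 and -0.34 ± 0.06. The first pair was called higher, the last pair was called lower, and the middle mutant was not called. The sites of 3 of them lie inside the printed stretch.

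The ADIPINT stretch, upstream of a long noncoding RNA of adipocytes, lies in a region 32640 bp from COL15A1, the nearest protein-coding gene. It held 1 match each to AGAACA and GGAACA, which are variants of the same androgen receptor arm, and 1 TEAD match, found in 12.4%, 11.6% and 11.9% of promoter windows of this length. All 3 tested sites of the region fall inside the printed stretch, and the authors' deposited table placed their mutants at -0.75 ± 0.24, -0.80 ± 0.40 and -1.14 ± 0.45. The first and the last were called lower, and the middle one was not.

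KPNA2, which encodes a nuclear import receptor subunit, and IFI27L2, an interferon-inducible family gene, had 1 mutant each. Their stretches held SP/KLF matches (1 and 3; 41.1% and 33.4% of windows of those lengths) and CCAAT matches (2 and 1; 29.4% and 26.2%), and that of KPNA2 also a TEAD match (10.3%). Neither mutant was called, with 0.19 ± 0.10 at KPNA2 and -0.04 ± 0.08 at IFI27L2 in the authors' deposited table.

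One single-mutant region, inside FBXL7, coincided base for base with a microRNA hairpin, MIR887 (chr5:15935182-15935260). The mature RefSeq sequence, from chr5:15935191-15935211 on the plus strand, is shown with its seed, bases 2 to 8, in capitals.
hsa-miR-887-5p: cUUGGGAGcccuguuagacuc
The tested site lay in the hairpin and not in this mature arm, and its estimate in the authors' deposited table was 0.40 ± 0.08, called higher (1.49-fold, adjusted p = 9.36e-06).

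Of the 1012 mutants, 580 were called (57.3%), 302 of them higher (29.8%) and 278 lower (27.5%). Higher and lower calls were thus near equal in number, and every count of called members below is read against these shares. Called estimates had a median size of 0.53, or 1.70-fold, and uncalled ones of 0.12, or 1.13-fold, in the authors' deposited table. Called mutants above 2-fold numbered 214, and the largest kept estimate was 4.24. The calls rest on the errors of the authors' model: with z divided by its robust SD of 3.96 only 2 mutants passed, those of HAS3 and IL3RA described below. That SD was taken over all kept mutants, any real effects included. The scaling thus treats most mutants as unchanged and can remove real effects along with excess error.

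Calls were counted by region as a description. With 29.8% of all mutants called higher and 27.5% lower, a region with several mutants can hold both directions without any property of its own. Whether the counts depart from this was not tested. Among the 221 regions with 2 or more mutants, calls of both directions stood in 83, higher calls alone in 60, lower calls alone in 58 and no call in 20, while every mutant was called in 37. The region medians lay around zero, 113 above and 108 below, with quartiles of -0.20 and 0.17. In the 145 regions with 3 or more mutants, the median SD among the mutants of a region was 0.43 against a median standard error of 0.12, and the SD was above the region's median error in 141. The median ratio of that SD to the error was 4.07, and the robust SD of z over all mutants was 3.96. Both come from the same estimates and errors, so nothing is drawn from their closeness. Without values per replicate, the spread within regions cannot be told apart from model errors that are too small. Estimates had 1 sign throughout in 26 of these 145 regions, 15 positive and 11 negative. Over the regions with 2 or more mutants, differences between regions carried 5.72% of the variance of the estimates, and 6.51% among mutants with a standard error of at most 0.2.

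The 10 most densely tested regions, where many mutants give the most room for both directions, are described one by one. The region at the end of NWD1, which encodes a NACHT and WD repeat protein, held the most mutants, 14 (chr19:16717674-16719978). Its estimates ran from -0.98 ± 0.20 to 0.66 ± 0.09 around a median of -0.01 in the authors' deposited table. The called higher mutants stood at 0.66, 0.50, 0.33 and 0.21, and the called lower ones at -0.22, -0.35, -0.70, -0.76 and -0.98, per the authors' deposited table. The remaining 5 were not called, so that the region as a whole was centred on no change while its mutants spread both ways.

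A region 734 bp from CHMP4B, a subunit of the ESCRT-III membrane scission machinery, lies over the noncoding gene ZNF341-AS1 and held 13 mutants (chr20:33806304-33810614). They ran from -0.43 ± 0.14 to 0.50 ± 0.19 with a median of 0.02 and a weighted mean of 0.07 in the authors' deposited table, 4 called higher and 3 lower. The 12 mutants of a region 2344 bp from SLC6A19, a neutral amino acid transporter of gut and kidney, ran from -0.24 ± 0.02 to 1.02 ± 0.16 with a median of 0.10 and a weighted mean of 0.02 (chr5:1196595-1199251). Of these, 6 were called higher and 3 lower in the authors' deposited table, and errors as low as 0.02 let effects as small as 0.08 ± 0.02 pass.

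Near HNRNPR, which encodes an RNA-binding protein of the hnRNP family, a pair of mutants stood apart from the other 9 (chr1:23346148-23349256). They were at 1.12 ± 0.13 and 1.09 ± 0.11 per the authors' deposited table, 3.06- and 2.98-fold higher. None of the other 9 reached beyond 0.34 ± 0.11 or -0.17 ± 0.07 there. The region beside NUP85, a scaffold subunit of the nuclear pore, also had 1 outlying mutant among 11 (chr17:75204247-75205231). It stood at -2.97 ± 0.53 in the authors' deposited table, while the rest lay between -0.48 ± 0.16 and 0.51 ± 0.17.

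Inside KIAA1671 the 10 mutants ran from -1.46 ± 0.14 to 0.81 ± 0.18 with a median of 0.37 in the authors' deposited table, 5 called higher and 2 lower (chr22:24999227-24999953). Their mean weighted by precision was 0.03, far below that median. Inside CHLSN, the gene of the gut hormone cholesin, the lowest of 10 kept mutants was -0.89 ± 0.10 and the highest 0.57 ± 0.13, with 3 called higher and 4 lower in the authors' deposited table (chr7:1006308-1006805). A further CHLSN mutant was among the 13 left out. A region inside DIP2C had 5 higher and 2 lower calls among 10 mutants, from -0.60 ± 0.12 to 0.55 ± 0.11 in the authors' deposited table (chr10:505127-506101).

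Inside TDRD9, a tudor domain helicase of the germline piRNA pathway, 2 of 10 mutants were called higher and 3 lower (chr14:103965607-103970606). The extremes were 1.54 ± 0.33 and -0.76 ± 0.13 in the authors' deposited table. A region 9275 bp from DIO3, the deiodinase that inactivates thyroid hormone, had 2 higher and 4 lower calls among 10 (chr14:101550223-101552220). Its highest mutant, 2.55 ± 0.83, was also its least precise in the authors' deposited table, and its lowest was -1.21 ± 0.25.

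A region inside C2, a component of the classical complement pathway, leaned to 1 side more than these, an observation chosen after its values were seen (chr6:31922724-31925687). Of its 9 mutants 7 were called lower, from -0.48 ± 0.07 to -0.97 ± 0.11 in the authors' deposited table. A single mutant was called higher at 1.01 ± 0.10 and the last, 0.43 ± 0.27, was not called, in the same authors' deposited table.

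Regions whose mutants were all called in 1 direction were few: 5 of the 145 with 3 or more mutants, each with 3. In 4 of them all mutants were lower. A second region inside DIP2C, 189 bp long, had mutants at -0.26 ± 0.07, -0.29 ± 0.05 and -0.99 ± 0.07 per the authors' deposited table, the last 2.69-fold lower (chr10:436481-436669). Of UNC13A, a synaptic vesicle priming protein, an intragenic region of 136 bp had mutants at -0.17 ± 0.07, -0.26 ± 0.11 and -1.02 ± 0.12 per the authors' deposited table (chr19:17613722-17613857). In both, 1 mutant was far lower than the other two.

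A region inside RHBG, an ammonium transporter of kidney and liver, had 3 closely placed values of -0.44 ± 0.12, -0.72 ± 0.20 and -0.73 ± 0.27 in the authors' deposited table (chr1:156383226-156384845). A region inside the long noncoding RNA gene CASC15 had the lowest median of the 5, with -0.58 ± 0.13, -0.88 ± 0.09 and -1.40 ± 0.40 in the authors' deposited table (chr6:21758393-21758534). The nearest gene listed as protein-coding, LOC124901483, was 92333 bp away.

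The only all-higher region lay inside AQP12A, an aquaporin gene, with 2 insertions and 1 deletion (chr2:240693804-240693941). Its mutants stood at 0.14 ± 0.01, 0.08 ± 0.01 and 0.05 ± 0.01 per the authors' deposited table, at most 1.15-fold, with the smallest errors of the table. Under Bonferroni adjustment AQP12A was the only 1 of the 5 in which every mutant still passed.

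The widest spans between a called higher and a called lower mutant of 1 region reached several log units. NRG1 encodes a growth factor that binds ERBB receptors, and the region within it spanned 5.68, from -1.56 ± 0.34 to 4.13 ± 1.14 in the authors' deposited table (chr8:32258966-32261520). Between them, 2 mutants were called lower at -1.06 ± 0.44 and -0.64 ± 0.13, and 4 were not called. A region 8867 bp from NOM1, a nucleolar protein gene, spanned 5.08, from -2.19 ± 0.16 to 2.89 ± 0.59 in the authors' deposited table (chr7:156939721-156940845).

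The MCPH1 region, 298 bp from the gene of the DNA damage response protein microcephalin, had 8 mutants and 7 calls (chr8:6648806-6650052). Higher calls stood at 2.57 ± 0.23, 0.87 ± 0.20, 0.73 ± 0.12 and 0.51 ± 0.16, and lower calls at -0.37 ± 0.15, -0.95 ± 0.17 and -1.57 ± 0.11, per the authors' deposited table. The only uncalled mutant was at -0.01 ± 0.12. In NRG1 a single high mutant stood apart from the other 7, while at MCPH1 the values below the highest were spread from -1.57 to 0.87.

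In 3 regions with 2 mutants each, the span was set by opposite calls alone. Near NID2, a basement membrane nidogen, the pair was 0.45 ± 0.12 and -3.77 ± 0.72 in the authors' deposited table (chr14:52075779-52083113). Near RRM2, a subunit of ribonucleotide reductase, it was 1.25 ± 0.38 and -1.90 ± 0.46 in the authors' deposited table (chr2:10117353-10117567). DHRS7B, the remaining one, had both mutants at 1 site and is described with the same-site pairs.

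Inside ZNF556, a zinc finger gene, a deletion at 0.95 ± 0.15 and a substitution at -2.44 ± 0.49 were the extremes of 5 mutants in the authors' deposited table (chr19:2867417-2868713). Near ADGRB1, an adhesion receptor gene, 7 mutants ran from -0.51 ± 0.11 to 2.42 ± 0.54 in the authors' deposited table, 3 called higher and 2 lower (chr8:142563712-142564312). In most of these regions the extreme mutant had an error several times the median of 0.12, and MCPH1 was the one whose extremes were both precise to 0.23 or better.

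At the other end, 3 regions with 4 mutants held no call. Inside CCDC88B the mutants ran from -0.29 ± 0.21 to 0.27 ± 0.15, and inside TNC, the gene of the matrix protein tenascin C, from -0.48 ± 0.30 to 0.04 ± 0.14, in the authors' deposited table (chr11:64346889-64347414 and chr9:115020942-115021023). The region at the end of HTR4, a serotonin receptor gene, ran from -0.28 ± 0.43 to 0.40 ± 0.36 in the authors' deposited table (chr5:148654515-148659126). With errors of this size, even the estimate of -0.48 at TNC could not be told from zero.

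The 152 single-mutant regions gave 81 calls, 45 higher and 36 lower, or 53.3% against 58.0% of the mutants in regions with 2 or more, and 40 of them passed Bonferroni adjustment. Their median size was 0.37 against 0.29, with a median error of 0.15 against 0.12. The highest belonged to a deletion inside RRAGD, a Rag GTPase that relays amino acid supply to mTORC1, at 4.24 ± 1.13 in the authors' deposited table (69.6-fold, chr6:89371866-89373220). Substitutions inside IL36RN, the interleukin-36 receptor antagonist, and OPCML, a GPI-anchored cell adhesion protein, followed at 2.53 ± 0.48 and 2.32 ± 0.68 per the authors' deposited table (chr2:113058662-113058740 and chr11:132744148-132745792).

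The next highest were OBSL1, a cytoskeletal adaptor gene, at 2.04 ± 0.40, and an insertion 1 bp beyond the gene body of CMYA5 at 1.84 ± 0.31 in the authors' deposited table (chr2:219568324-219569161 and chr5:79800223-79801000). A deletion inside SIPA1L3, a Rap GTPase regulator, reached 1.74 ± 0.70 in the authors' deposited table, with the weakest evidence of the 10 (adjusted p = 0.0246, chr19:38107616-38108499). RHOB, a small GTPase of endosomes, and MTA3, a subunit of the NuRD chromatin complex, had 1.68 ± 0.37 and 1.64 ± 0.22 in the authors' deposited table (chr2:20442570-20442865 and chr2:42563517-42563674). The taurine transporter gene SLC6A6 and TGFBI, a matrix protein gene induced by TGF-beta, closed the 10 with 1.54 ± 0.30 and 1.16 ± 0.35 in the authors' deposited table (chr3:14468113-14468342 and chr5:136078497-136079380).

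Among single mutants called lower, a deletion nearest to ZNF366, but over the noncoding gene TNPO1-DT, stood at -3.22 ± 0.63 in the authors' deposited table (chr5:72623967-72625556). A substitution near TNFSF10, which encodes the apoptosis-inducing ligand TRAIL, was at -2.69 ± 0.86 in the authors' deposited table (chr3:172532123-172533333). A deletion 213003 bp from SATB1, a chromatin organiser, was at -2.09 ± 0.26 in the authors' deposited table (chr3:18658595-18658836). These 3 were intergenic, unlike the next.

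A deletion inside HAS3, a hyaluronan synthase gene, had the smallest adjusted p of all mutants, 9.43e-138, at -1.61 ± 0.06 in the authors' deposited table (5.00-fold lower odds, chr16:69102540-69105037). The HAS3 mutant was thus neither the largest effect nor the most precise one, but combined both. MYADM followed at -1.59 ± 0.15 and ITGB8, an integrin subunit gene, at -1.43 ± 0.45 in the authors' deposited table (chr19:53863177-53864029 and chr7:20372331-20377330). KIAA0825 and the readthrough gene ZNF511-PRAP1 had -1.35 ± 0.26 and -1.29 ± 0.29 in the authors' deposited table (chr5:94609906-94611905 and chr10:133323932-133324067). RNF39, a RING finger gene, and GJC1, the gene of connexin 45, had -1.24 ± 0.26 and -1.10 ± 0.36 in the authors' deposited table (chr6:30076755-30080828 and chr17:44799592-44801028).

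Small adjusted p-values went mostly with moderate effects. After HAS3 came a substitution 386 bp from IL3RA, the alpha subunit of the interleukin-3 receptor, at -1.32 ± 0.08, per the authors' deposited table (adjusted p = 1.89e-56, chrX:1334601-1336399). Of the 8 IL3RA mutants 4 were called lower, 1 was called higher at 0.57 ± 0.12, and 3 were not called, per the authors' deposited table. Inside GALNS, a lysosomal sulfatase gene, 2 mutants were higher at 1.56 ± 0.11 and 0.66 ± 0.09, 1 was lower at -0.91 ± 0.22 and 1 was not called at 0.15 ± 0.10, in the authors' deposited table (chr16:88828941-88829161).

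Near MEIS3, a TALE homeobox gene, 1 of 4 mutants was called, at -0.36 ± 0.03, and the other three lay within 0.04 of zero in the authors' deposited table (chr19:47422788-47424117). Inside HPCAL1, a neuronal calcium sensor gene, all 3 were called, at 0.31 ± 0.03, 0.12 ± 0.02 and -0.09 ± 0.02 per the authors' deposited table (chr2:10344801-10345000). Both mutants near WASHC2A, a subunit of the endosomal WASH complex, were lower, the insertion at -0.55 ± 0.05 and the deletion at -0.98 ± 0.20 in the authors' deposited table (chr10:50135346-50135503).

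Pairs of mutants that changed the same site in different ways numbered 14, in 14 regions, and in 10 of them the estimates differed by more than 3 times the error of the difference, taken as the root of the summed squared errors. Each member is set against wild-type sequence under its own name, and whether the members share wild-type reads was not analysed here, so that error is a description and not a test. Both members were called in 7 pairs, in the same direction in 3 and in opposite directions in 4.

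At the IL3RA site, 1 substitution gave -1.32 ± 0.08 and the other, not called, 0.14 ± 0.12 in the authors' deposited table, a difference of 1.46 with an error of 0.14. Near SMIM17 a substitution was higher at 0.95 ± 0.09 and a deletion at its site lower at -0.67 ± 0.17 in the authors' deposited table (chr19:56643114-56643143). Near DHRS7B, a peroxisomal reductase gene of ether lipid synthesis, an insertion gave -3.40 ± 0.82 and a deletion 0.45 ± 0.07 in the authors' deposited table (chr17:21121652-21121963). The SMIM17 and DHRS7B members were called in opposite directions, although both changed the same site.

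Near MACIR, a regulator of macrophage metabolism, an insertion was higher at 1.15 ± 0.31 and a deletion lower at -0.34 ± 0.08 in the authors' deposited table (chr5:103244048-103244529). Near P2RY8, a G protein-coupled receptor gene, 2 insertions at 1 site stood at 0.40 ± 0.18 and -1.59 ± 0.46 per the authors' deposited table (chrX:1461065-1462569). Their wild-type counterparts also differed. Against scrambled sequence, the authors' deposited table gave the wild-type constructs of the 2 P2RY8 names 0.78 ± 0.12 and -0.77 ± 0.12. Those of the MACIR names stood at -1.70 ± 0.28 and 0.88 ± 0.20, and those of the IL3RA names at 1.14 ± 0.08 and 0.52 ± 0.11, in the authors' deposited table. How these wild-type constructs of 1 site differ in sequence or placement was not analysed here, and its part in the mutant estimates was not tested.

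Pairs with the same direction were WFDC3 (deletion 1.47 ± 0.17, insertion 0.43 ± 0.17) and HNRNPC, an RNA-binding protein gene (deletion 1.72 ± 0.38, substitution 0.53 ± 0.12), in the authors' deposited table (chr20:45773698-45773772 and chr14:21270505-21270854). The third, FAM91A1, had the deletion at 0.26 ± 0.07 and the substitution at 0.09 ± 0.04 in the authors' deposited table. In these 3 pairs the deletion had the larger estimate. Near TNS1, the gene of the focal adhesion protein tensin, only the insertion at 0.97 ± 0.13 was called against 0.16 ± 0.08 for the substitution, in the authors' deposited table (chr2:217797789-217797879). Near LRCOL1, 1 substitution was lower at -0.20 ± 0.04 and the other uncalled, per the authors' deposited table, and near ADGRB1 the deletion was at -0.40 ± 0.07 and the substitution at -0.03 ± 0.06.

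Mutants of 1 region that lay close together agreed in direction about as often as those farther apart. Where both mutants of a pair up to 10 bp apart were called, 21 of 43 pairs had the same direction (48.8%). The share was 130 of 229 (56.8%) beyond that up to 100 bp, 128 of 270 (47.4%) from there up to 500 bp and 47 of 96 (49.0%) beyond 500 bp. A difference above 3 errors was found in 41.2%, 45.6%, 49.6% and 39.6% of all pairs at these distances. Pairs of 1 region share mutants, so these shares carry no test.

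Some close neighbours moved in opposite directions. At MCPH1, substitutions 4 bp apart stood at -1.57 ± 0.11 and 0.87 ± 0.20 per the authors' deposited table. At C2, substitutions 10 bp apart stood at -0.59 ± 0.12 and 1.01 ± 0.10 per the authors' deposited table. At JPH3, a junctophilin gene, substitutions 9 bp apart stood at 0.82 ± 0.09 and -0.38 ± 0.07, and at BDH1, a ketone body enzyme gene, substitutions 2 bp apart at 0.51 ± 0.14 and -1.31 ± 0.22, in the authors' deposited table. These 4 were picked from the pairs with the largest difference over its error, after the values were seen.

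A wild-type construct of the same name was available for 318 mutants, of which a few examples are given. Both tables use wild-type reads, so an error in those reads enters the 2 estimates with opposite sign, and the values are given side by side with no relation drawn from them. The highest NRG1 mutant, 4.13 ± 1.14, had a wild-type counterpart at -3.75 ± 1.08 against scrambled sequence in the authors' deposited table. Inside CGN, the gene of the tight junction protein cingulin, the highest mutant was 1.59 ± 0.36 and its counterpart -1.64 ± 0.34 in the authors' deposited table (chr1:151525831-151527830). Inside ZNF276 they were 2.06 ± 0.36 and -1.96 ± 0.34, and inside TDRD9 1.54 ± 0.33 and -1.84 ± 0.31, per the authors' deposited table. These 4 pairs have opposite signs, which an error in the wild-type reads could give by itself, and this was not tested.

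Other examples had the mutant below zero and its counterpart above it, under the same limit. The MCPH1 mutant at -1.57 ± 0.11 had a counterpart at 2.16 ± 0.28, and the IL3RA mutant at -1.32 ± 0.08 one at 1.14 ± 0.08, in the authors' deposited table. In others both were above zero: the MCPH1 mutant at 2.57 ± 0.23 had a counterpart at 0.70 ± 0.19, and the HNRNPR mutant at 1.12 ± 0.13 one at 0.52 ± 0.09, in the authors' deposited table. At C2, the lowest mutant, -0.97 ± 0.11, had a counterpart at 0.86 ± 0.07, and the higher one, 1.01 ± 0.10, one at -0.28 ± 0.08, in the authors' deposited table. The regions of these paragraphs were chosen after their values were seen.

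Gene lists grouped the regions by the function of the gene they are named for, and no list was tested. The lists left out other genes of the same functions, so counts and directions hold for the listed genes only. The list of androgen receptor and prostate lineage genes had 10 mutants in 3 regions of FOXA1, the pioneer factor of the prostate lineage, and NDRG1, an androgen-induced gene. Of these, 3 were called higher and 2 lower (50%, against 57.3% of all mutants). Inside FOXA1 the 3 mutants of 1 region, all insertions or deletions, stood at -0.05 ± 0.32, -0.80 ± 0.11 and -1.89 ± 0.35 per the authors' deposited table, the last 2 called lower (chr14:37589984-37591363). The adjacent FOXA1 region at the gene end had a substitution called higher at 0.66 ± 0.18 and an uncalled deletion at -1.35 ± 0.70 in the authors' deposited table (chr14:37588593-37589983). Inside NDRG1 2 of 5 mutants were called, both higher, at 0.34 ± 0.06 and 0.31 ± 0.06 per the authors' deposited table (chr8:133252342-133253812).

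Transcription and chromatin genes had 5 higher and 11 lower calls among 30 mutants of 14 regions (53.3%), with a median of -0.14 against 0.02 over all mutants. The region near EP300, a histone acetyltransferase gene, supplied 9 of these mutants, 2 called higher and 4 lower, from -0.26 ± 0.07 to 0.33 ± 0.09 in the authors' deposited table (chr22:41087513-41090530). Both mutants nearest to HDAC4, a histone deacetylase gene, but over LINC02991, were lower at -0.46 ± 0.12 and -0.71 ± 0.07 per the authors' deposited table (chr2:239578924-239583018). The single mutant near KLF4, a pluripotency and epithelial factor, was lower at -0.63 ± 0.12 in the authors' deposited table (chr9:107480139-107481400). Inside ZNF276 the higher mutant given above stood beside 1 lower at -0.43 ± 0.10 and 1 uncalled at -0.05 ± 0.11 in the authors' deposited table (chr16:89724785-89725970). Inside ZNF577 the only call among 3 mutants was 2.87 ± 0.61, higher, per the authors' deposited table (chr19:51860242-51863236).

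The listed adhesion, junction and matrix genes had 6 higher and 6 lower calls among 17 mutants of 7 regions (70.6%). Off the list were TNC with no call among 4 mutants, COL4A5 with 2 lower calls and ITGB8 with 1 lower. TGFBI, with 1 higher call, and TNS1, with 1 higher and 1 lower, were off it as well. All 4 CGN mutants were called, at 1.59 ± 0.36, 0.67 ± 0.10, 0.49 ± 0.06 and -0.94 ± 0.19 per the authors' deposited table. Near F11R, which encodes an adhesion molecule of tight junctions, the 3 calls among 7 mutants were all lower, from -0.30 ± 0.05 to -0.55 ± 0.07 in the authors' deposited table (chr1:161021433-161026093).

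Autophagy, lysosome and nutrient-sensing genes had 4 higher and 4 lower calls among 10 mutants of 5 regions (80%). Inside MAP1LC3B, which encodes the autophagosome protein LC3B, 1 deletion was at -4.11 ± 1.14 and the other, uncalled, at 0.15 ± 0.11 in the authors' deposited table (chr16:87396941-87400020). Inside TPCN2, an endolysosomal channel gene, the pair was 0.48 ± 0.10 and -2.29 ± 0.33 in the authors' deposited table (chr11:69083083-69083175). Inside TECPR2, an autophagy gene, 0.99 ± 0.18 and 0.91 ± 0.33 were higher and -0.30 ± 0.07 lower in the authors' deposited table (chr14:102444316-102446357). Inside RPTOR, the mTORC1 scaffold, 1 mutant was lower at -0.40 ± 0.11 and 1 uncalled at 0.19 ± 0.14 in the authors' deposited table (chr17:80785326-80787290).

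Of genes of DNA repair and replication, MCPH1 is described above. Inside TIMELESS, a replication fork protein gene, the pair was 2.10 ± 0.54 and -0.67 ± 0.22 in the authors' deposited table (chr12:56447919-56449062). Immune and cytokine genes had 7 higher and 6 lower calls among 21 mutants of 5 regions (61.9%). Inside SKAP1, a T-cell adaptor gene, the 4 calls among 7 mutants were all higher, from 0.16 ± 0.05 to 0.83 ± 0.09 in the authors' deposited table (chr17:48156512-48159961). The 4 mutants inside UBASH3A, a dampener of T-cell receptor signals, split: 1 was higher at 0.17 ± 0.06 and 1 lower at -0.37 ± 0.17 in the authors' deposited table (chr21:42440842-42441892).

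The listed ion channel and neuronal genes had 9 higher and 4 lower calls among 22 mutants of 7 regions (59.1%). These were 40.9% higher and 18.2% lower, against 29.8% and 27.5% over all mutants. Off the list stood UNC13A, with 3 lower calls among 3 mutants, and HPCAL1, with 2 higher and 1 lower among 3. The lean to higher calls therefore depends on which genes were listed. Inside TMEM132C all 3 were called, at 1.20 ± 0.15, 0.69 ± 0.15 and -0.92 ± 0.22 per the authors' deposited table (chr12:128294179-128296178). Near NECAB1, a neuronal calcium-binding protein gene, 2 of 5 were called, both higher, at 2.17 ± 0.41 and 0.48 ± 0.12 per the authors' deposited table (chr8:90786550-90791250). The single mutants inside GRIN2A, an NMDA receptor subunit gene, and SCN2A, a sodium channel gene, were higher at 0.40 ± 0.09 and 0.85 ± 0.24 per the authors' deposited table (chr16:10126498-10127481 and chr2:165369090-165370085).

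The listed splicing and RNA-processing genes had 5 higher and no lower calls among 11 mutants of 2 regions (45.5%), with 6 mutants uncalled. Inside SF3A1, a subunit of the U2 snRNP, the calls were 0.39 ± 0.11, 0.28 ± 0.09 and 0.19 ± 0.08, and the uncalled mutants 0.23 ± 0.12 and -0.03 ± 0.09, in the authors' deposited table (chr22:30351638-30352714). The other 2 calls were the HNRNPC pair at 1 site, so they rest on a shared site. Lower calls did occur off this list: the HNRNPR region had 3 higher and 1 lower among 11 mutants. A region inside HNRNPF had 2 higher and 1 lower among 4 (chr10:43396831-43397183). The shares of these lists describe the few regions each holds and were not compared with one another.

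The setting of the regions made modest differences to the share of calls. Regions inside a protein-coding gene had 61.6% of 515 mutants called, those at a gene end 50% of 52 and intergenic ones 53.3% of 445. Regions of at most 200 bp had 59.0%, those above that up to 1000 bp 55.9%, from there up to 3000 bp 61.8% and longer ones 49.0%. Substitutions had 57.3% of 866 called, deletions 58.8% of 97 and insertions 55.1% of 49, and over 5 equal stretches of a region, from its start to its end, the shares were 55.8%, 58.0%, 57.1%, 57.3% and 58.8%. The median size of deletion estimates was 0.39 in the authors' deposited table, with a median error of 0.15, against 0.29 and 0.12 for substitutions.

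Outside chromosome 8, for which no start sites were used here, mutants within 1 kb of a RefSeq start site had a median size of 0.18 against 0.28 to 0.33 farther away, in the authors' deposited table, but the share called was 55.9% of 68 against 55.0% to 58.8%. Their median error was 0.08 against 0.12 to 0.13, so smaller effects were measured more precisely there. The part of precision in this difference was not tested. By chromosome, the share on chromosome 6 was the highest at 77.3% of 44, with 14 higher and 20 lower calls, and on chromosome X 4 calls were higher and 13 lower among 29 mutants. The C2 region supplied 8 of the 34 calls on chromosome 6. On chromosome X the IL3RA region had 4 lower calls and 1 higher, and the P2RY8 region 3 lower and 1 higher. The other lower calls there lay in the THOC2, COL4A5, EIF1AX and PORCN regions, and the other higher ones at EIF1AX and COX7B.

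Larger estimates came with larger errors. The 81 mutants with an error of at most 0.05 had a median size of 0.10 and none above 0.55, and 64.2% were called, in the authors' deposited table. The median size was 0.20, 0.37 and 0.69 in the classes up to 0.1, 0.2 and 0.5, with 56.7%, 56.7% and 52.8% called, in the same authors' deposited table. Of the 22 mutants with an error above 0.5, 21 were called, 13 higher and 8 lower, at a median size of 2.78. The 8 largest estimates printed above all belong to this least precise class, those of NRG1, RRAGD, MAP1LC3B, NID2, DHRS7B, ZNF366, NUP85 and NOM1. Beyond them the authors' deposited table holds no estimate between the largest kept size of 4.24 and the smallest left out of 16.0.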

How the data were processed

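Reporter libraries in C4-2B cells were sequenced as 3 gDNA, 3 RNA and 1 association library. The submitters' processing notes name Bowtie2 and hg38 but give neither a role nor a version. Not given in the sources used here are trimming, barcode filters, construct length, the scrambled sequence and the model's form. The authors deposited 1 estimate per construct, a natural log odds ratio, per the file headers. A z score, a p-value and a q-value (adjusted p) stand beside each in the deposited tables, which hold no counts, so no count model was run.

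Recomputed with SciPy 1.17.1 under Python 3.11.15 (pandas 2.3.3, NumPy 2.4.6), the p-value matched z on a two-sided normal, and the q-value matched its Benjamini-Hochberg adjustment over all 1025 mutants. The standard error is the estimate divided by z, and a fold the exponential of the size. The direction was read from the table's name. Summary scripts were tested on simulated data.

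Coordinates come from the construct names. Starts were used as given, counted from 1: 11 regions then begin on the base after a gene end, against 1 and 0 with the start moved by -1 or 1, and 10 regions are exactly 2000 bp and 8 exactly 5000 bp long. Genes came from 19993 protein-coding genes of a RefSeq table of GRCh38.p14, matched by symbol, which gives no exons, so exon, intron and UTR were not resolved. Of the regions, 198 lay inside a gene, 13 at a gene end and 162 between genes, with lengths of 16 to 9598 bp and a median of 916.

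The members, gene lists and naming rule were chosen with earlier results of these data known. The rule named the 10 regions with the most mutants, regions of 3 or more mutants all called 1 way, the 10 widest spans between opposite calls, and the 10 highest and 10 lowest called single mutants. It also named the 10 smallest adjusted p-values, the 10 same-site pairs furthest apart in errors, regions of 4 or more mutants without a call, and up to 5 called regions per list. One region so named is not reported here. The C2, FBXL7, FAM91A1, JPH3, BDH1, EP300 and ZNF577 regions, those in promoter windows and those of the closing paragraph stand outside the rule. No test was run over mutants or regions. Alternatives were the adjustment of p, the spread of z, the threshold, a limit of 0.2 on the error, the limit on the estimate, and weighted region means.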

Additional observations from a re-analysis of the deposited data

How the results depend on the processing

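No paired analysis was possible because the deposited tables hold no values per replicate, and for the same reason no replicate could be left out. Bonferroni adjustment left 308 calls (158 higher, 150 lower), 39 regions with calls of both directions, 1 region of 3 or more mutants all called 1 way and 40 called single mutants. With z divided by its robust SD of 3.96, the counts were 2 calls (0 higher, 2 lower), 0 regions with both directions, 1 with calls of 1 direction, 0 all called 1 way and 1 single mutant, against 625 at an unadjusted p under 0.05. An adjusted p under 0.01, or a limit of 0.2 on the error, left 3 regions all called 1 way in place of 5. The counts fell because each alternative passes fewer mutants. Of 202 named calls, 130 passed Bonferroni adjustment and 2 passed the scaled z. Benjamini-Hochberg over kept mutants alone and a limit of 5 on the estimate were run for the counts of called, higher and lower mutants, and no limit for the region and single-mutant counts too, and each of these stayed within 1.5 times. With weighted means in place of medians, 12 named regions changed sign, among them TECPR2 (0.91 to -0.10), NID2 (-1.66 to 0.33) and MCPH1 (0.25 to -0.11). The share of calls in regions over a gene was 60.5%, and 61.6% without gene ends, an alternative chosen after seeing the data. The depth behind an estimate is unknown.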

Other observations

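The 13 mutants left out had sizes from 16.0 to 19.5 with standard errors of 337 to 4343 in the authors' deposited table, 6 above zero and 7 below, and the smallest adjusted p was 0.982. All were substitutions, and 3 of them fell in the region inside MICAL3, a monooxygenase gene of cytoskeletal regulation.

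The highest region median belonged to a region 2006 bp from WDR73 (chr15:84634818-84637279), where the authors' deposited table has 1.16 ± 0.24 and 3.59 ± 1.18, both called higher. The second has the largest error of all kept mutants, and the weighted mean was 1.25 against the median of 2.37. Both mutants were called higher as well inside PMP22, a myelin protein gene, at 0.24 ± 0.09 and 2.36 ± 0.68 in the authors' deposited table (chr17:15244516-15246939). Near DPF2, a subunit of the BAF chromatin remodelling complex, both were called lower, at -0.61 ± 0.15 and -1.47 ± 0.24 in the authors' deposited table (chr11:65328867-65329394). Inside COL4A5, a basement membrane collagen gene, both were lower at -0.84 ± 0.29 and -1.24 ± 0.23 in the authors' deposited table (chrX:108440121-108442497). Inside ZNF544, 3 of 4 mutants were called higher, and the estimates ran from 0.25 ± 0.23 to 1.25 ± 0.37 in the authors' deposited table (chr19:58261634-58262753). These regions were chosen after their values were seen, and no test was made over them.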
